A study of Mus musculus with 35 samples.

Results

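The small intestine of wild-type mice was compared on microarrays 6 h after an oral gavage of WY14643, a synthetic agonist of the nuclear receptor PPARα, and 6 h after a gavage of EPA (eicosapentaenoic acid), a fish-oil fatty acid given as its triacylglycerol. The comparison rests on 9 of the 35 arrays of the series, 4 after WY14643 and 5 after EPA, chosen by their titles, and it covers the 15384 of 45037 probesets whose mean exceeded log2 5 (32 on the linear scale) in at least 1 of the 8 groups of the series. These probesets held 8626 genes with a single symbol. All mice were males of 4 months kept for 2 weeks on a modified AIN76A diet with olive oil and fasted for 4 h. The wild-type mice were 129S1/SvImJ. The PPARα-null mice (4 after WY14643 and 5 after EPA) were 129S4/SvJae and are used here only to set a difference beside its value in that genotype. Loss of the receptor and the substrain differ together between the genotypes, in the interaction below as well, and cannot be told apart. WY14643 was given as 400 μl of a 0.1% suspension in 0.5% carboxymethyl cellulose and EPA as 400 μl of oil. The drug, the fat load and the vehicle therefore differ together between the groups and cannot be told apart, and no untreated mice were analysed here. Each array held the full-length small intestine of 1 mouse, so a change in the cells present and a change in RNA per cell cannot be told apart either.

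PPARα is a transcription factor that fatty acids and fibrate-like drugs switch on. It pairs with RXR and binds direct repeats in DNA near genes of fatty acid uptake, activation and oxidation in mitochondria and peroxisomes. In the intestine it is active in the absorbing enterocytes, where dietary fat is taken up, oxidized in part and largely packed again into triacylglycerol for export. A fatty acid is at once a ligand of the receptor, a fuel and a building block, whereas WY14643 is a ligand that brings no fat.

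Among the 9 arrays, EPA replicate 5 did not match its label. The probeset shared by Cyp4a10 and Cyp4a31, fatty acid omega-hydroxylases that depend on PPARα, had log2 levels of 12.50, 12.75, 12.33 and 11.83 after WY14643, and 8.43, 8.64, 8.68, 8.15 and 1.81 after EPA. The library labelled EPA replicate 5 was thus at the level of PPARα-null mice, in which the 4 WY14643 arrays had 1.60 to 2.00. The same array also had the lowest Ppara level of its group, 8.14 against 9.45 to 9.93 on the other 4 EPA arrays. In the PPARα-null groups, EPA replicate 5 and OA replicate 1 stood at wild-type levels of the omega-hydroxylase probeset (9.91 and 10.61). The Ppara probeset itself still gave 9.74 to 10.26 in PPARα-null mice after WY14643 and 8.19 to 8.95 on the 4 remaining EPA arrays, so it does not read the deletion. Values are from all arrays unless said otherwise. The counts over all genes are also given without EPA replicate 5, or without these 3 arrays where PPARα-null mice enter, and so are list counts and single named genes whose call changed or whose value moved by over 1.5-fold. WY14643 replicate 4 also stood apart in some genes, and its values are given with each. Enterocyte markers were strong in both groups, with a summed linear level of 142000 to 145000 over 13 markers after WY14643 and 134000 to 139000 after EPA. Messages of pancreatic acinar cells varied between mice of a group: Cela2a, which encodes an elastase, had 10.74, 11.08, 10.79 and 12.84 after WY14643, and 13.66, 3.52, 11.50, 10.88 and 12.91 after EPA. None of the 16 expressed acinar markers was called, and their summed level ran from 46800 to 90100 after WY14643 and from 33700 to 154000 after EPA. These sums include Zg16, the member of highest mean. It had log2 levels of 14.26 to 14.42 on the 9 arrays and did not vary as Cela2a did. The part of acinar RNA in the results was not tested.

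A large share of the expressed genes differed between the WY14643 and the EPA intestine. With all arrays 3894 of 8626 genes were called at an adjusted p under 0.05 (45.1%), 1905 of them higher after WY14643 (22.1%) and 1989 lower (23.1%). Without EPA replicate 5 there were 3774 calls among 8635 genes (43.7%), with 1813 higher (21.0%) and 1961 lower (22.7%). The calls with and without that array had 3592 genes in common, 92.2% of the calls with it and 95.2% of those without it, and 3587 of these had the same direction. Most differences were small, with a median size of 0.518 on the log2 scale among the called genes. A called difference of over 2-fold was found for 296 genes that were higher (3.43%) and 198 that were lower after WY14643 (2.30%). Without EPA replicate 5 these were 292 (3.38%) and 232 genes (2.69%). The median difference over all expressed genes was -0.006. The rises and falls counted in gene lists below are to be read against the 22.1% higher and 23.1% lower over all genes.

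**Figure D1:**
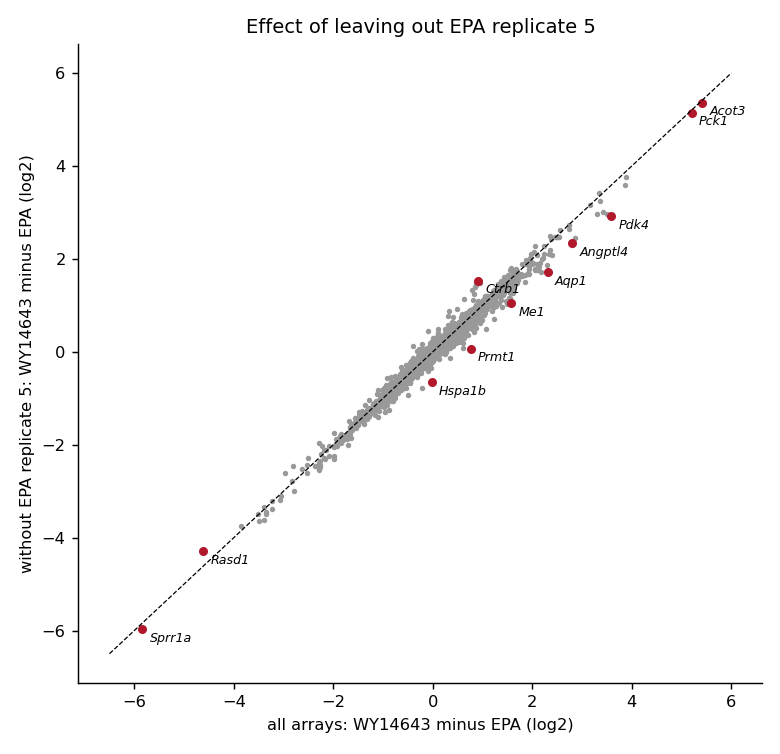
Log2 difference WY14643 minus EPA in wild-type mice for each expressed gene, with all arrays on the horizontal axis and without EPA replicate 5 on the vertical axis, the dashed line marking equal values. Most genes lie on the line, while Pdk4 (3.59 and 2.92), Angptl4 (2.80 and 2.34), Me1 (1.58 and 1.05) and Aqp1 (2.31 and 1.71) lie below it.

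In PPARα-null mice the same comparison gave 3258 calls (37.8%), of which 1798 genes were higher after WY14643 (20.8%) and 1460 lower (16.9%). Without the 3 arrays there were 3083 calls (35.6%), with 1640 higher (19.0%) and 1443 lower (16.7%). Of the wild-type calls 65.5% were also called in PPARα-null mice, which made up 78.2% of the PPARα-null calls, and 2502 of these 2549 shared genes had the same direction. A test of the difference between the genotypes, the interaction, was passed in 103 genes by a difference that lay above that of the PPARα-null mice (1.19%) and in 9 genes by one that was lower (0.104%). Without the 3 arrays these were 87 (1.01%) and 8 genes (0.0925%), and 89 genes were called both ways. Of the genes over 2-fold higher after WY14643 in wild-type mice, 209 (70.6%) were also called in that direction in PPARα-null mice and 58 passed the interaction. Of those over 2-fold lower, 180 (90.9%) were also called in that direction in PPARα-null mice and 1 passed the interaction. Among the 103 genes of the first direction, 101 were also higher after WY14643 in wild-type mice. Over all 8626 genes the differences in the genotypes, which share no array, had a Pearson r of 0.81, a value across genes, which are not independent replicates.

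**Figure D2:**
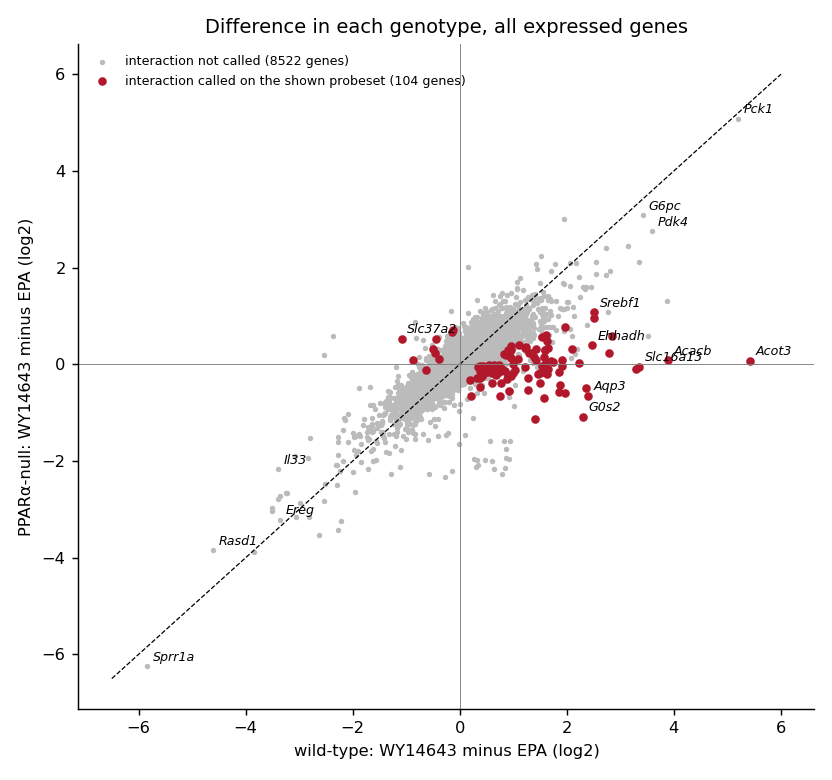
Log2 difference WY14643 minus EPA for each expressed gene in wild-type mice (horizontal) and PPARα-null mice (vertical), with all arrays. Red points passed the interaction on the probeset shown, the dashed line marks equal differences, and Acot1 (3.30 and -0.10) lies near the horizontal zero line while Pck1 (5.20 and 5.08) and Ereg (-3.36 and -3.21) lie near the dashed line.

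Acot3, a peroxisomal acyl-CoA thioesterase, had log2 levels of 8.55, 8.49, 8.24 and 6.39 after WY14643, and 2.33, 2.77, 2.69, 2.46 and 2.27 after EPA. All EPA arrays lay under the limit of expression, so the level was at least 7.57-fold higher after WY14643 (log2 difference 5.42 ± 0.36 (SE), limma adjusted p = 6.89e-12). The difference was 5.36 without EPA replicate 5 and 0.07 in PPARα-null mice, with an interaction of 5.34. Acacb, the acetyl-CoA carboxylase whose product malonyl-CoA restrains the entry of fatty acids into mitochondria, had 5.90, 6.75, 7.05 and 5.71 after WY14643, and 2.66, 2.99, 2.48, 2.21 and 2.00 after EPA. It was at least 2.56-fold higher (3.89 ± 0.34, adjusted p = 1.59e-09), with 0.08 in PPARα-null mice. Slc16a13, a monocarboxylate transporter, had 8.05, 8.81, 8.59 and 7.18 after WY14643, and 5.02, 4.81, 4.67, 5.13 and 4.42 after EPA, which was at least 8.92-fold higher. Its difference was 3.35 in wild-type and -0.05 in PPARα-null mice. The groups did not overlap in any of these 3 genes, and WY14643 replicate 4 was the lowest of its group in each. Over all genes 33.4% had no overlap, and these 3 were named for their large differences.

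Other large rises were shared by both genotypes. Pck1, the cytosolic PEPCK of gluconeogenesis and glyceroneogenesis, had 11.15, 12.10, 12.21 and 11.16 after WY14643, and 7.37, 5.63, 5.95, 7.05 and 6.28 after EPA. This was a 36.7-fold difference (5.20 ± 0.73, adjusted p = 2.92e-06), and it was 5.08 in PPARα-null mice (5.68 without the 3 arrays). G6pc, the glucose-6-phosphatase that releases free glucose, had 10.51, 11.04, 10.81 and 10.09 after WY14643, and 7.28, 7.53, 7.51, 8.14 and 5.53 after EPA. Its level after WY14643 was 10.7-fold that after EPA, a log2 difference of 3.42, and the difference was 3.08 in PPARα-null mice. Pdk4, the kinase that shuts pyruvate out of oxidation when fat is burned, had 12.16, 12.59, 12.68 and 11.81 after WY14643, and 9.28, 9.46, 9.48, 9.35 and 6.03 after EPA. Its difference of 3.59 ± 0.62 became 2.92 without EPA replicate 5 and was 2.75 in PPARα-null mice (3.40 without the 3 arrays). None of the 3 genes passed the interaction. Beside them, Hk2, the hexokinase that traps glucose in the cell, was 4.55-fold lower after WY14643 (-2.19, adjusted p = 9.37e-09) and the glucose transporter Slc2a1 3.13-fold lower (-1.64), with -1.99 for Hk2 and -1.12 for Slc2a1 in PPARα-null mice, and neither passed the interaction. Of the 21 expressed genes of sugar transport and digestion, 7 rose and 2 fell, and 8 rose and 2 fell without EPA replicate 5. With all arrays 42.9% were called, against 45.1% of all genes.

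The remaining large rises were of mixed kinds. Mtarc1, a mitochondrial reductase, was at least 8.43-fold higher after WY14643 (3.87), and Sectm1a was at least 2.96-fold higher (3.15). In PPARα-null mice Mtarc1 had 1.31, not called, and 2.05, called, without the 3 arrays. Sectm1a had 2.45 there, which was called, and neither gene passed the interaction. Pbld1 was 10.1-fold higher (3.34), with 2.11 in PPARα-null mice and no passed interaction (adjusted p = 0.566). Paqr7, a membrane progestin receptor, was 7.21-fold higher (2.85), with an interaction of 2.26 (1.56 without the 3 arrays). Its difference in PPARα-null mice was 0.59 and not called with all arrays, and 0.90 and called without the 3 arrays. Aqp3, a channel for water and glycerol, was 5.27-fold higher (2.40), while its difference was -0.65 in PPARα-null mice (interaction 3.05, or 2.43 without the 3 arrays). Ppara itself had 11.67, 11.68, 11.71 and 11.06 after WY14643, and 9.45, 9.91, 9.93, 9.56 and 8.14 after EPA. It was 4.38-fold higher (2.13, adjusted p = 1.72e-05), and 1.82 without EPA replicate 5. In PPARα-null mice the Ppara difference was 1.00 and called (1.33 without the 3 arrays), and its interaction was not passed (adjusted p = 0.543). Pparg, the adipogenic member of the family, fell by 0.91.

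The promoter of Pbld1 is shown because it holds the element known for PPARα. Promoters were read from RefSeq (mouse build GRCm38.p6) as 250 bases before to 50 after each start site, both strands were searched, and a match describes the letters only. A direct repeat of AGGNCA with 1 base between, the form bound by PPARα with RXR, lies in 0.381% of 32851 promoters. Such shares count promoters, whereas a gene of a list was counted once if any promoter under its symbol held the letters. The shares and the list counts, here and below, are therefore not in the same unit. It was found in none of 18 mitochondrial and 33 peroxisomal oxidation genes with a promoter sequence, which says only that these letters are not in this window. Capitals mark the repeat, and all bases lie before the start site.
Pbld1 (chr10:63061358-63061470, + strand): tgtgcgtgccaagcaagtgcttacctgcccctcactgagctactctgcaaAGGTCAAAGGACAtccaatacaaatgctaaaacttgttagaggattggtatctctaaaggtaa

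**Figure D3:**
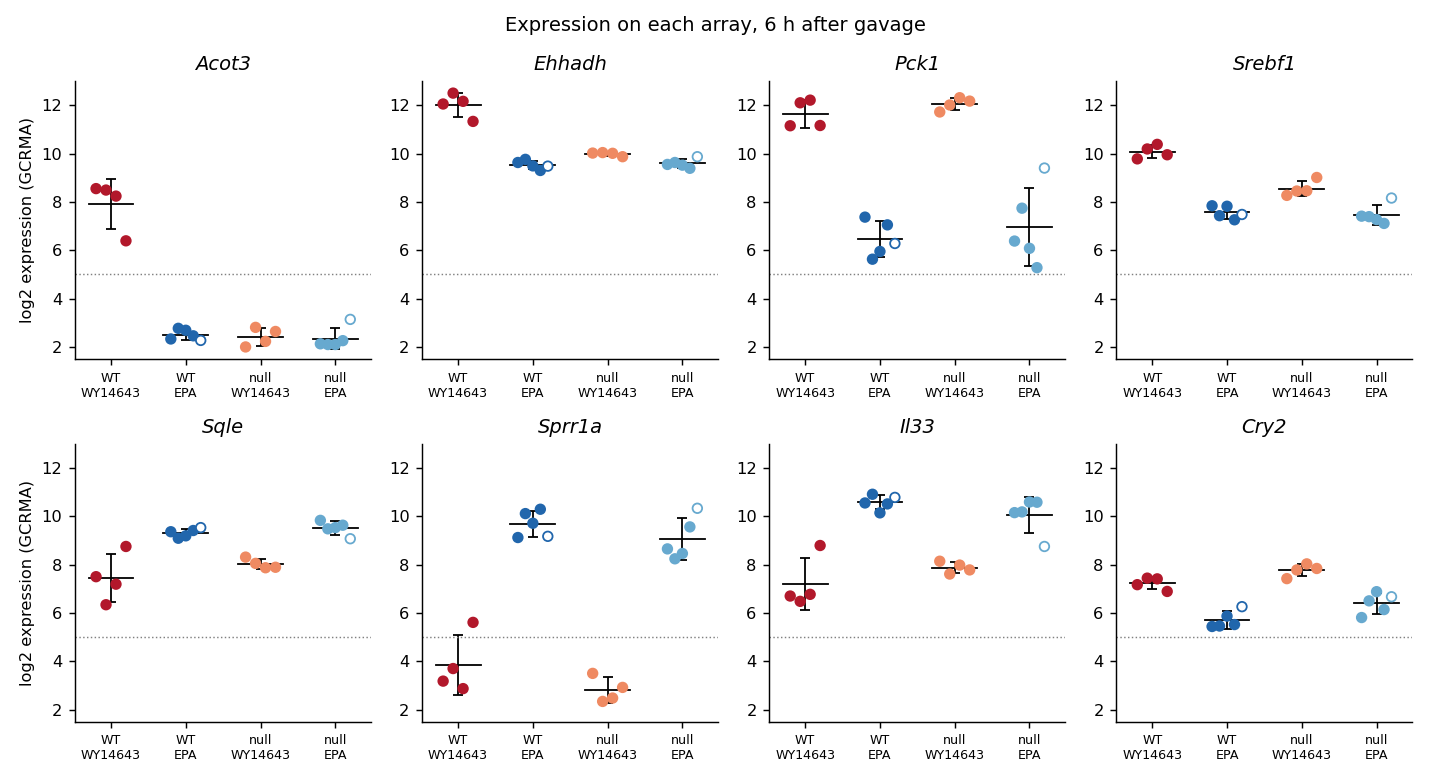
Log2 expression on each array (points) for 8 genes, with the group mean and SD as bars, in wild-type and PPARα-null mice after WY14643 or EPA. Open points mark EPA replicate 5 of each genotype, the dotted line is the limit of expression at log2 5, and Acot3 and Ehhadh are high in wild-type mice after WY14643 while Sprr1a and Il33 are low after WY14643 in both genotypes.

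Genes of fatty acid oxidation were higher after the drug than after the fatty acid. Of 21 expressed genes of mitochondrial fatty acid oxidation 19 rose and none fell, with a median difference of 0.77 against -0.006 over all genes. With a higher difference in wild-type mice, 12 of them passed the interaction (1.19% of all genes), and 13 without the 3 arrays (1.01%). Without EPA replicate 5 again 19 rose, with a median of 0.69. Acads, the short-chain acyl-CoA dehydrogenase, had 7.73, 8.21, 8.29 and 7.95 after WY14643, and 6.60, 6.10, 5.06, 4.98 and 3.66 after EPA, a 6.81-fold difference (2.77, adjusted p = 0.000232). Its difference in PPARα-null mice was 1.09 and not called, and its interaction was not passed (adjusted p = 0.646). Slc22a5, the carnitine transporter, was 3.77-fold higher (1.91) with 0.09 in PPARα-null mice, and Eci1, which shifts double bonds so that unsaturated fatty acids can be oxidized, was 3.76-fold higher (1.91) with -0.03 there. Acad11, a dehydrogenase of long-chain acyl-CoA, rose by 1.63 (interaction 1.13). Cpt1a, the carnitine palmitoyltransferase of the outer membrane, rose by 0.84, and Acadm, the medium-chain dehydrogenase, by 0.68. In PPARα-null mice 3 genes of this list rose and 1 fell with all arrays, and 6 rose and 0 fell without the 3 arrays. Over all genes 20.8% rose and 16.9% fell there, or 19.0% and 16.7% without the 3 arrays. The 83 expressed genes of the respiratory chain, which receives the electrons of this oxidation, had 5 rises and 7 falls (14.5% called, against 45.1% of all genes).

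Peroxisomal genes moved in the same direction. Of 38 expressed genes of peroxisomal oxidation and biogenesis 27 rose and 3 fell, with a median difference of 0.52, and 10 rose by over 2-fold. Without EPA replicate 5 there were 27 rises and 2 falls among 39 genes. Ehhadh, the bifunctional enzyme of peroxisomal beta-oxidation, had 12.05, 12.50, 12.16 and 11.33 after WY14643, and 9.63, 9.76, 9.49, 9.30 and 9.48 after EPA. This 5.56-fold difference (2.47 ± 0.21, adjusted p = 1.37e-09) compared with 0.39 in PPARα-null mice, which was not called. Without the 3 arrays the PPARα-null difference was 0.46 and called (adjusted p = 0.0315). Acaa1b, the peroxisomal thiolase, had 13.50, 13.68, 13.74 and 13.02 after WY14643, and 10.52, 10.82, 10.48, 10.25 and 7.81 after EPA, with a difference of 3.51 that was 2.97 without EPA replicate 5. Its interaction had an adjusted p of 0.149 with all arrays and of 0.0187 without the 3 arrays. The PPARα-null difference of Acaa1b was 0.58 and not called with all arrays, and 1.26 and called (adjusted p = 0.00136) without the 3 arrays. Acox2, an oxidase of branched chains and bile acid precursors, was at least 4.87-fold higher (2.33), and Decr2, a peroxisomal dienoyl-CoA reductase, 3.91-fold higher (1.97). Catalase (Cat), which breaks down the hydrogen peroxide of this pathway, rose by 0.90. In PPARα-null mice 10 peroxisomal genes rose and 3 fell with all arrays, and 17 rose and 3 fell without the 3 arrays. Over all genes 20.8% and 19.0% rose there.

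Thioesterases and omega-hydroxylases were also mostly higher. Of 11 expressed acyl-CoA thioesterases, which split activated fatty acids, 8 rose and 1 fell. With a higher difference in wild-type mice, 4 passed the interaction (1.19% of all genes). Acot1 had 11.36, 11.61, 11.39 and 10.67 after WY14643, and 8.07, 8.60, 8.28, 8.24 and 6.61 after EPA, a 9.82-fold difference (3.30, adjusted p = 1.38e-06) against -0.10 in PPARα-null mice. Acot2 and Acot4 rose by 2.08 and 2.16. The 4 genes lie side by side on chromosome 12 and are similar in sequence, so probes may share signal between them. Without EPA replicate 5 there were 6 rises in this list in place of 8. Of 8 expressed genes of omega-hydroxylation 7 rose and none fell, among them Cyp4b1 (1.22, interaction 0.88 with an adjusted p of 0.0143, or of 0.0768 without the 3 arrays) and the alcohol dehydrogenase Adh4 (1.35). The omega-hydroxylase probeset of Cyp4a10 and Cyp4a31 had a difference of 5.21 with all arrays (adjusted p = 0.00511) and of 3.87 without EPA replicate 5, which was not counted in the list because it matches several genes. Of 13 genes of fatty acid uptake and activation 4 rose and 3 fell, and 3 rose and 3 fell without EPA replicate 5. The acyl-CoA synthetase Slc27a2 rose by 1.74, Acsl3 by 1.60 and the scavenger receptor Cd36 by 1.23, whereas Acsl4, which prefers arachidonate and EPA as substrates, fell by 1.51.

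Genes of lipid droplets and lipolysis were also higher after WY14643, with 14 rises and 1 fall among 20 expressed genes and a median difference of 1.01. Angptl4, an inhibitor of lipoprotein lipase, had 11.20, 11.65, 11.54 and 10.70 after WY14643, and 8.58, 8.94, 9.21, 8.97 and 6.67 after EPA, a 6.94-fold difference (2.80, and 2.34 without EPA replicate 5). It was 1.93 in PPARα-null mice, and the interaction was not passed (adjusted p = 0.947). The carboxylesterase Ces1d rose by 2.74, and hormone-sensitive lipase, Lipe, was at least 1.57-fold higher. G0s2, an inhibitor of the lipase ATGL, had 8.92, 9.24, 8.76 and 8.33 after WY14643, and 6.63, 6.90, 7.27, 6.97 and 4.80 after EPA. Its difference of 2.30 in wild-type mice stood against -1.08 in PPARα-null mice, with an interaction of 3.38 (2.43 without the 3 arrays). Of 8 adipocyte markers on the array 4 were expressed. Lipe and Pck1 were higher after WY14643, Cidec and Fabp4 were not called (0.53 and -0.47), and the median was 1.46. The summed linear level of the 4 was 4110 to 6800 after WY14643 and 2030 to 2250 after EPA. This sum includes Pck1, with log2 levels of 11.15 to 12.21 after WY14643 and 5.63 to 7.37 after EPA. Lipe had 5.22 to 5.84 and 2.84 to 3.93. The part of fat tissue in these results was not tested. Among 24 genes of triacylglycerol resynthesis and chylomicrons 9 rose and 3 fell (50% called, against 45.1% of all genes). Apob, the structural protein of the chylomicron, rose by 1.51 on 1 of its 2 expressed probesets, the only one called.

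**Figure D4:**
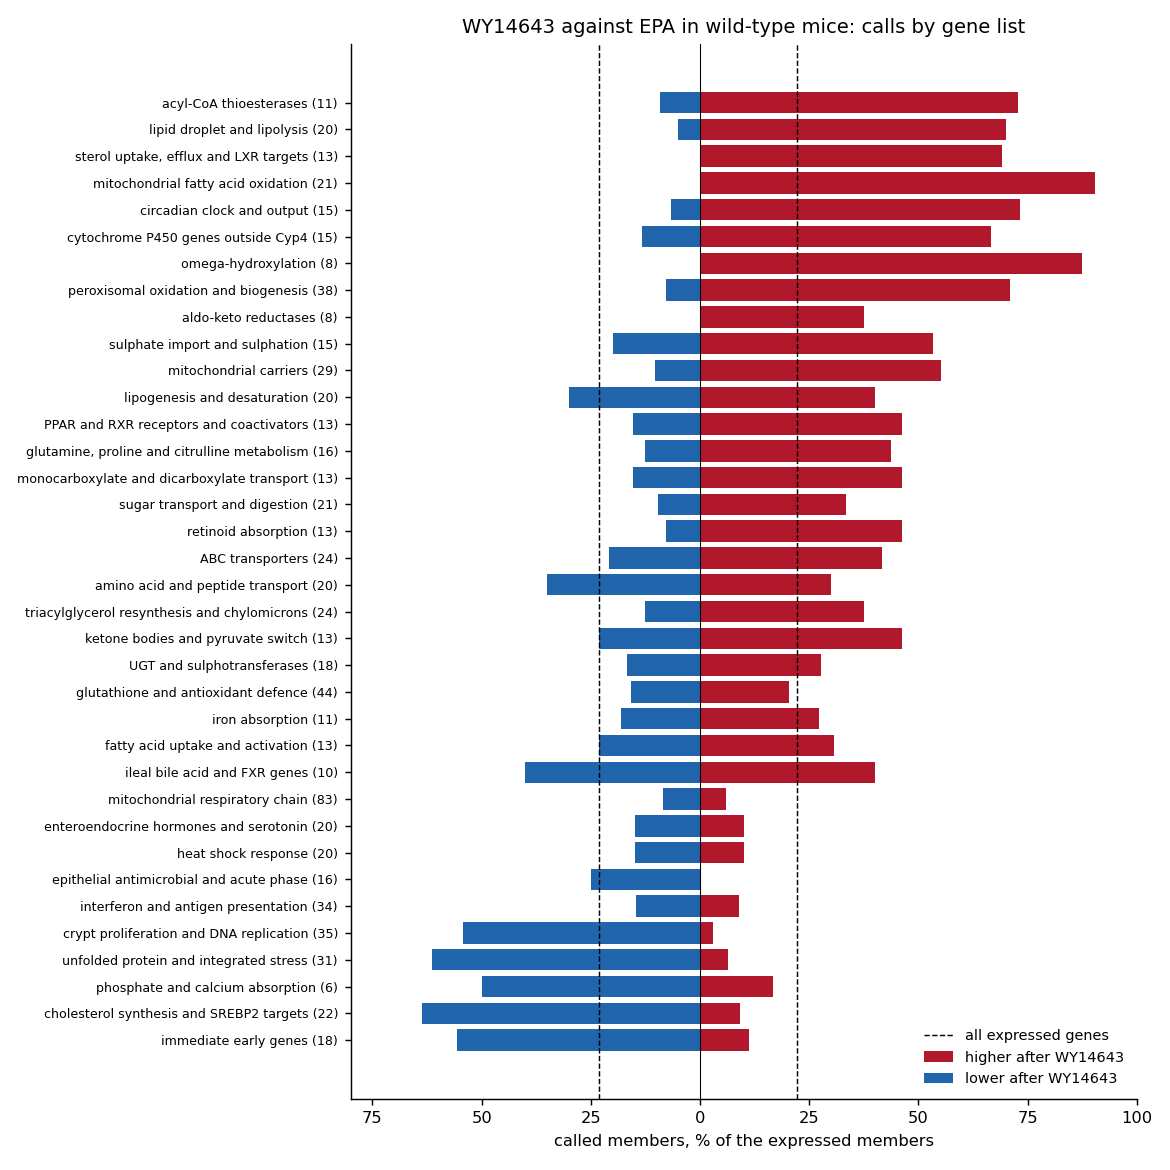
Share of the expressed members of each gene list (number of members in brackets) that were higher (red, right) or lower (blue, left) after WY14643 than after EPA in wild-type mice, with all arrays, ordered by the median difference. Dashed lines mark 22.1% higher and 23.1% lower over all expressed genes, and fatty acid oxidation lies far to the right while cholesterol synthesis, stress and immediate early genes lie to the left.

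Lipogenic genes split. Srebf1, the SREBP1 transcription factor of lipogenesis, had 9.78, 10.19, 10.38 and 9.95 after WY14643, and 7.84, 7.43, 7.82, 7.26 and 7.48 after EPA, a 5.69-fold difference (2.51 ± 0.24, adjusted p = 5.15e-09). It was 1.08 in PPARα-null mice (interaction 1.43). Me1, the malic enzyme that supplies NADPH, rose by 1.58, or by 1.05 without EPA replicate 5, and its interaction of 2.28 had an adjusted p of 0.0472 with all arrays and of 0.0573 without the 3 arrays. Fasn, fatty acid synthase, had 6.91, 7.28, 7.28 and 7.96 after WY14643, and 8.07, 8.34, 8.55, 8.09 and 8.08 after EPA, so that it fell by 0.87 (adjusted p = 0.000468) while Srebf1 rose. The elongase Elovl6 fell by 0.75. Over the 20 expressed genes of lipogenesis and desaturation 8 rose and 6 fell, and 7 rose and 6 fell without EPA replicate 5.

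Cholesterol genes moved in opposite directions by function. Of 22 expressed genes of cholesterol synthesis and SREBP2 targets 14 fell and 2 rose after WY14643, with a median of -0.56. Without EPA replicate 5 there were 12 falls and 2 rises (median -0.51). In PPARα-null mice 13 fell, where 16.9% of all genes did. Sqle, squalene epoxidase, had 7.50, 6.34, 7.19 and 8.75 after WY14643, and 9.36, 9.09, 9.19, 9.41 and 9.53 after EPA, a 3.67-fold lower level (-1.87, adjusted p = 5.46e-06). Fdft1, squalene synthase, had 8.51, 7.99, 8.05 and 9.67 after WY14643, and 9.97, 9.45, 9.88, 9.74 and 10.17 after EPA, with 1 WY14643 array, replicate 4, among the EPA arrays. This was a 2.44-fold lower level (-1.29). Hmgcs1, which makes the precursor of mevalonate, fell by 1.21 and Lss, lanosterol synthase, by 1.17. The promoter of Hmgcs1 is shown as the one among 18 cholesterol genes with the sterol element TCACNCCAC (capitals), which lies in 1.24% of promoters.
Hmgcs1 (chr13:119690164-119690272, + strand): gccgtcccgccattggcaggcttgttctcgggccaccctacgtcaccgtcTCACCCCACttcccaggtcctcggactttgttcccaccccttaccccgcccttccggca

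Genes of sterol handling went the other way: 9 of 13 genes of sterol uptake, efflux and LXR targets rose and none fell. In PPARα-null mice 7 rose, or 8 without the 3 arrays, where 20.8% and 19.0% of all genes did. Abcg8, a subunit of the pump that returns plant sterols and cholesterol to the gut lumen, had 10.65, 10.76, 10.65 and 9.83 after WY14643, and 8.19, 7.96, 7.88, 7.37 and 8.23 after EPA, a 5.84-fold difference (2.55) with 1.86 in PPARα-null mice. Mylip, which marks the LDL receptor for degradation, rose by 1.93, Abca1, which loads cholesterol onto HDL, by 1.44 with -0.06 in PPARα-null mice (interaction adjusted p = 0.0745, or 0.0806 without the 3 arrays, so not passed), and Cyp27a1, which makes 27-hydroxycholesterol, by 1.41 with 1.46 there. Of 10 expressed ileal bile acid genes 4 rose and 4 fell, and 3 rose and 4 fell without EPA replicate 5. The importer Slc10a2 fell by 1.55, the exporter subunit Slc51b by 1.31 and the binding protein Fabp6 by 0.49. The repressor Nr0b2 rose by 1.80 and Vdr by 1.29. Of 6 expressed ileal markers 5 were lower and 1, Osr2 (1.37), was higher, and the part of where along the gut the RNA came from was not tested.

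Genes that were lower after WY14643, and so higher after EPA, included Sprr1a, Rasd1, Mboat1, Hs3st1 and Plat. Sprr1a, a cornified-envelope protein that epithelia make under stress, had 3.18, 3.70, 2.87 and 5.61 after WY14643, and 9.12, 10.11, 9.71, 10.29 and 9.17 after EPA. It was at least 25.6-fold lower after WY14643 (-5.84 ± 0.77, adjusted p = 1.17e-06), and the difference was -6.24 in PPARα-null mice. Il33, an alarmin cytokine, had 6.70, 6.48, 6.77 and 8.79 after WY14643, and 10.55, 10.91, 10.14, 10.51 and 10.78 after EPA, 10.5-fold lower (-3.40). Ereg, a ligand of the EGF receptor, had 6.39, 6.39, 6.55 and 6.99 after WY14643, and 9.76, 10.22, 10.34, 9.99 and 9.39 after EPA, 10.3-fold lower (-3.36, with -3.21 in PPARα-null mice). Plat, tissue plasminogen activator, was 11.3-fold lower (-3.50). Rasd1, a small GTPase induced by glucocorticoids, had 3.26, 2.91, 2.63 and 3.69 after WY14643, and 8.82, 7.81, 7.55, 5.46 and 9.02 after EPA, at least 6.65-fold lower. None of the groups overlapped in these 5 genes and none passed the interaction. Over all genes 33.4% had no overlap, and these 5 were named for their large differences.

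The other large falls had the same direction in both genotypes. Mboat1, a lysophospholipid acyltransferase, was at least 3.14-fold lower and Hs3st1, a heparan sulphate sulphotransferase, at least 2.91-fold lower. The secreted activin antagonist Fst was at least 5.25-fold lower, the interleukin-1 receptor antagonist Il1rn at least 1.57-fold lower, S100a14 at least 2.66-fold lower and the protease Prss27 at least 1.93-fold lower. Acta1, skeletal muscle actin, was 9.38-fold lower (-3.23). Agr2, a chaperone of goblet cell mucin, fell by 1.27 and Chst4, a sulphotransferase, by 1.94. Of the 10 expressed goblet markers 3 were called (1 higher and 2 lower), which is 30% against 45.1% of all genes.

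Stress and immediate early genes were lower as groups. Of 31 expressed genes of the unfolded protein and integrated stress responses 19 fell and 2 rose, with a median difference of -0.49. Without EPA replicate 5 there were 18 falls and 2 rises. In PPARα-null mice 17 fell, where 16.9% of all genes did. Chac1, a glutathione-degrading enzyme induced by ATF4, had 3.37, 3.42, 3.06 and 3.59 after WY14643, and 5.24, 5.93, 6.29, 5.40 and 5.31 after EPA, at least 1.55-fold lower. Mthfd2 of mitochondrial folate metabolism fell by 1.85 and Psat1 of serine synthesis by 1.71, and the transcription factor Atf3 was at least 2.65-fold lower. Herpud1, a component of ER-associated degradation, rose by 0.90. The promoters of Chac1, Atf3 and Herpud1 are shown because they share the C/EBP-ATF element TTGCATCA (capitals), through which ATF4 acts. It lies in 0.895% of promoters and in 4 of 28 expressed stress genes, of which Chac1 and Atf3 were lower, Herpud1 was higher and Vldlr was not called.
Chac1 (chr2:119350999-119351106, + strand): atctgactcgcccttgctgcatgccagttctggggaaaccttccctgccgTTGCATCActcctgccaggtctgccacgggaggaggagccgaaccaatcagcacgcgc
Atf3 (chr1:191183386-191183493, - strand): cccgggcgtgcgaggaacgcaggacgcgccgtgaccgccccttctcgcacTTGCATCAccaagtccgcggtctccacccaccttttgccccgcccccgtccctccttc
Herpud1 (chr8:94386267-94386374, + strand): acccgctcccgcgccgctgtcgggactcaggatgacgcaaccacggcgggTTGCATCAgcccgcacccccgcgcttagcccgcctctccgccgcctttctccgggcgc

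Immediate early and heat shock genes were also compared. Of 18 immediate early genes 10 fell and 2 rose. In PPARα-null mice 6 fell and 2 rose, with and without the 3 arrays, where 16.9% and 16.7% of all genes fell. Egr1 had 7.05, 7.46, 7.09 and 7.95 after WY14643, and 10.24, 9.64, 10.10, 9.32 and 8.99 after EPA, 4.82-fold lower (-2.27), Klf6 fell by 1.57 on 1 of its 4 expressed probesets, the only one called, and Ier3 fell by 1.17. Among 20 heat shock genes 2 rose and 3 fell with all arrays (median -0.07), and 1 rose and 5 fell without EPA replicate 5 (median -0.20). With all arrays 25% were called, against 45.1% of all genes. The chaperone Hspa8 had -1.96 on 1 of its 4 expressed probesets, and the other 3 were not called. The inducible Hspa1b was not called (-0.02 ± 0.57, adjusted p = 0.986) and was -0.65 without EPA replicate 5, so that 1 array moved its value. Ctrb1, an acinar protease, and Prmt1, an arginine methyltransferase, were not called either (0.91 for Ctrb1 and 0.76 for Prmt1, or 1.53 and 0.07 without EPA replicate 5).

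Of 35 genes of proliferation and DNA replication 19 fell and 1 rose, and 18 fell and 1 rose without EPA replicate 5. In PPARα-null mice 19 fell and 1 rose, or 16 and 1 without the 3 arrays, where 16.9% and 16.7% of all genes fell. Rrm2, which supplies deoxynucleotides, fell by 1.00 with all arrays and by 1.07 without EPA replicate 5. Ccnd1 fell by 0.86 with all arrays on 1 of its 3 expressed probesets, but its adjusted p was 0.0799 without EPA replicate 5.

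Genes of the circadian clock and its output were higher after WY14643 in 11 of 15 expressed members and lower in 1. Without EPA replicate 5 there were 11 rises and 0 falls. In PPARα-null mice 11 rose, or 10 without the 3 arrays, where 20.8% and 19.0% of all genes did. Cry2, a repressor of the clock, had 7.17, 7.44, 7.41 and 6.89 after WY14643, and 5.44, 5.46, 5.87, 5.52 and 6.26 after EPA, a 2.86-fold difference (1.52, adjusted p = 1.87e-05). Per3 was at least 1.20-fold higher and Tef, a transcription factor of clock output, 2.59-fold higher (1.37), each on 1 of 2 expressed probesets, and the deubiquitinase Usp2 2.62-fold higher (1.39). Per1 rose by 0.93. None of the 15 genes passed the interaction. The E-box CACGTG, the site of the clock activators, lies in 7.15% of promoters and in 3 of 12 clock genes, Per1, Cry1 and Tef, and the D-box TTATGNAA, the site of Tef, lies in 3.38% and in Per1 and Per3. The Per1 stretch is shown with its E-box in capitals.
Per1 (chr11:69098733-69098838, + strand): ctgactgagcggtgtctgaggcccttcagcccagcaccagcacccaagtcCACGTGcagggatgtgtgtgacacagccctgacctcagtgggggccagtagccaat

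Of 29 expressed mitochondrial carriers 16 rose and 3 fell. With a higher difference in wild-type mice, 6 passed the interaction (1.19% of all genes), and 5 without the 3 arrays (1.01%). Slc25a42, which carries coenzyme A, was at least 2.92-fold higher (2.50), with an interaction of 1.55, and Slc25a30 was 3.67-fold higher (1.88), with -0.43 in PPARα-null mice. Of 44 expressed genes of glutathione and antioxidant defence 9 rose and 7 fell (36.4% called, against 45.1% of all genes). Ephx2, which hydrolyses fatty acid epoxides, rose by 1.09 and Gclm of glutathione synthesis by 1.06, while Gpx2 fell by 1.03 with overlapping groups. Of 13 expressed ketone body and pyruvate genes 6 rose and 3 fell. Pdk2 rose by 1.49 and Aacs fell by 0.95. Bdh2 rose by 0.99 with all arrays (adjusted p = 0.0286), but its adjusted p was 0.0896 without EPA replicate 5. The lysosomal Scarb2 rose by 1.60 with an interaction of 1.30, and the antimicrobial lectin Reg3g fell by 1.39 with overlapping groups.

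The genes that differed in the other direction between the genotypes were few. Slc37a2, a phosphate-linked antiporter, had 3.81, 3.27, 4.08 and 4.32 after WY14643, and 4.99, 5.04, 4.62, 5.15 and 4.96 after EPA, so that both means lay under the limit of expression and no fold is given. Its interaction was -1.61 with all arrays (adjusted p = 0.0177), and its adjusted p was 0.0644 without the 3 arrays. Icosl, a ligand of T cell costimulation, fell by 0.45 in wild-type mice and had a difference of 0.53 in PPARα-null mice, with an interaction of -0.99.

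The WY14643 arrays were also set against DHA (docosahexaenoic acid) and OA (oleic acid). The 3 comparisons share the WY14643 arrays. Values are given for 5 of the named genes that lay above the limit of expression in all 4 groups, chosen after their values were seen. Pck1 was 5.20 above EPA, 3.72 above DHA and 3.11 above OA, and Acot1 was 3.30, 1.76 and 1.60 above them. Srebf1 was 2.51 above EPA and 2.50 above DHA but 0.53 above OA. Ereg was -3.36 against EPA, -2.81 against DHA and -2.15 against OA, and Plat was -3.50, -2.73 and -1.97.

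**Figure D5:**
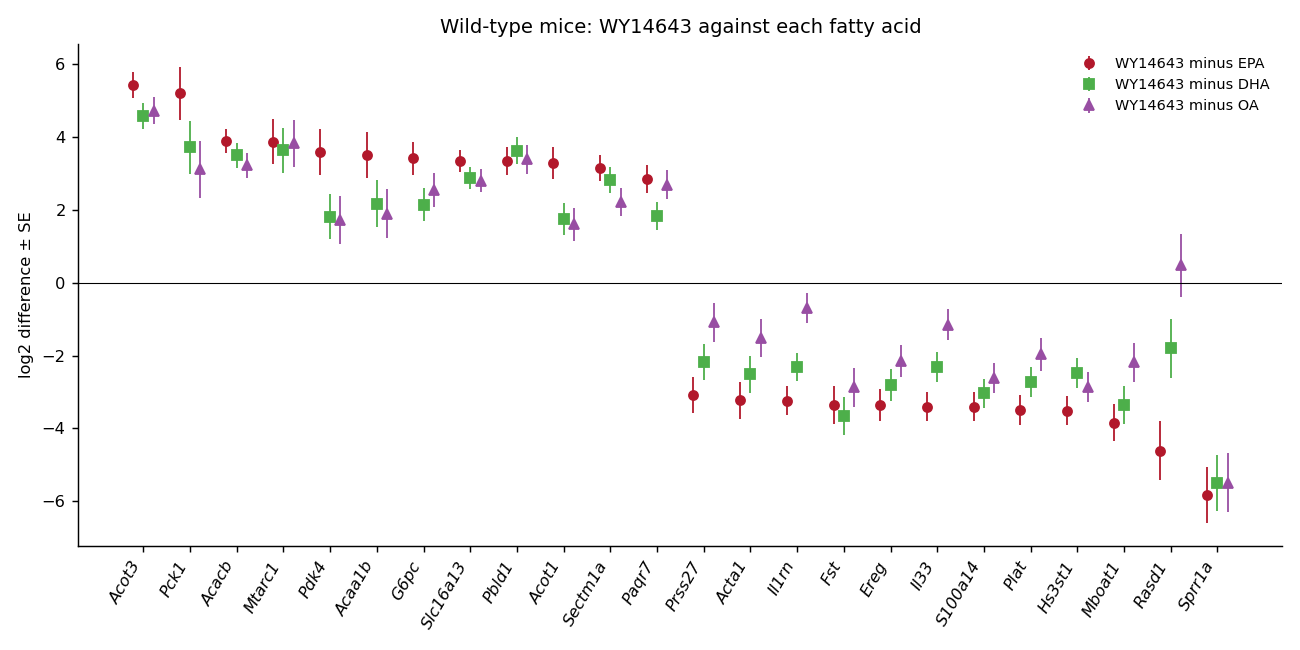
Log2 difference of WY14643 minus EPA (circles), DHA (squares) and OA (triangles) in wild-type mice, with its SE, for the 12 largest rises and 12 largest falls against EPA. Pck1 is high against each fatty acid (5.20, 3.72 and 3.11) and Plat low (-3.50, -2.73 and -1.97), while differences of genes with a group under log2 5, Acot3, Sprr1a and Rasd1 among them, are read against background and are not exact sizes.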

How the data were processed

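RNA from the small intestine of single mice was hybridised to Affymetrix whole-genome mouse arrays. The deposited values are log2 expression values that the authors made with GCRMA, which corrects the background, normalizes by quantiles and summarises the probes of a probeset. The version and the scan batches are not given in the sources used here. Of 45101 probesets 64 controls were left out, and 15384 had a mean above log2 5 (32 on the linear scale) in at least 1 of the 8 groups. Names came from the platform annotation: 34945 probesets had 1 symbol, 932 several and 9160 none, and the last 2 kinds were not named, apart from the Cyp4a10 and Cyp4a31 probeset.

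Group means of all 35 arrays were fitted with limma 3.58.1 in R 4.3.3 (lmFit, then eBayes with an intensity trend), with the Benjamini-Hochberg adjustment taken across expressed probesets. The call for a gene required that at least 1 of its probesets reached an adjusted p under 0.05, and the value shown is that of its called probeset of highest mean, or of its probeset of highest mean where none was called. The interaction is the wild-type difference less the PPARα-null difference. A fold against a group mean under log2 5 was computed against that limit and is given as "at least". The number of arrays limits the precision.

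Genes were named by rule: the 12 largest rises and falls called with and without EPA replicate 5, up to 4 called members of largest difference per gene list (or the member of highest mean where none was called), the 6 largest interactions in each direction, the 6 genes moved most by that array, and Ppara and Cyp4a10. Not all genes of the rule are described. Herpud1, Per1, Fasn, Elovl6, Cpt1a and Acadm were chosen after their values were seen, and Cry1 and Vldlr are named for a promoter match. The members and lists were chosen with earlier results of these data known. Alternatives covered left-out arrays, array weights, the replicate block, filters, the variance prior, normalization, scale, probesets and thresholds.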

Additional observations from a re-analysis of the deposited data

Results flagged for a closer look

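Single arrays lay far from the rest of their group by Dixon's criterion in 25 of 206 gene and group pairs tested. Chance gives about 1 in 20 for independent genes. The tested genes are not independent, and some were named because EPA replicate 5 moved them most, so the count cannot be set against that rate. EPA replicate 5 was the lowest of its group in 13 of the 25 pairs. Its log2 levels were far below the others for Pdk4 (6.03, the others 9.28 to 9.48), Acaa1b (7.81, the others 10.25 to 10.82), Acot1 (6.61, the others 8.07 to 8.60), Paqr7 (4.57, the others 6.33 to 6.83), Ppara (8.14, the others 9.45 to 9.93), Slc22a5 (9.05, the others 10.06 to 10.23) and Eci1 (7.48, the others 8.51 to 8.90). The same held for Acot2 (5.75, the others 7.22 to 7.48), Angptl4 (6.67, the others 8.58 to 9.21), G0s2 (4.80, the others 6.63 to 7.27), Me1 (7.31, the others 9.64 to 10.48), Bdh2 (3.96, the others 4.82 to 5.13) and the Cyp4a10 and Cyp4a31 probeset (1.81, the others 8.15 to 8.68). WY14643 replicate 4 was low for Acot3 (6.39, the others 8.24 to 8.55), Paqr7 (8.38, the others 9.18 to 9.25), Ppara (11.06, the others 11.67 to 11.71), Lipe (5.22, the others 5.74 to 5.84), Abcg8 (9.83, the others 10.65 to 10.76), Slc25a42 (5.84, the others 6.73 to 6.87) and Slc25a30 (6.22, the others 7.27 to 7.39), and high for Il33 (8.79, the others 6.48 to 6.77) and Cela2a (12.84, the others 10.74 to 11.08). EPA replicate 4 was high for Slc51b (10.63, the others 9.96 to 10.15), and EPA replicate 2 was low for Icosl (6.61, the others 7.08 to 7.27) and Cela2a (3.52, the others 10.88 to 13.66).

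The WY14643 minus EPA difference was tested between the genotypes in the interaction, and 22 of the named genes passed. Some genes were named for the size of their interaction, so this count cannot be set against the share over all genes. Each is given as its interaction, then its difference in wild-type and in PPARα-null mice. The interaction was positive for Acot3 (5.34, with 5.42 and 0.07), Acacb (3.81, with 3.89 and 0.08), Slc16a13 (3.39, with 3.35 and -0.05), Acot1 (3.40, with 3.30 and -0.10), Paqr7 (2.26, with 2.85 and 0.59), Acsl3 (1.30, with 1.60 and 0.30) and Slc22a5 (1.82, with 1.91 and 0.09). It was also positive for Eci1 (1.94, with 1.91 and -0.03), Acad11 (1.13, with 1.63 and 0.49), Ehhadh (2.08, with 2.47 and 0.39), Decr2 (2.57, with 1.97 and -0.60), Cyp4b1 (0.88, with 1.22 and 0.34) and G0s2 (3.38, with 2.30 and -1.08). The remaining positive ones were Srebf1 (1.43, with 2.51 and 1.08), Me1 (2.28, with 1.58 and -0.70), Scarb2 (1.30, with 1.60 and 0.30), Slc25a42 (1.55, with 2.50 and 0.96), Slc25a30 (2.30, with 1.88 and -0.43), Aqp3 (3.05, with 2.40 and -0.65) and Cpt1a (0.99, with 0.84 and -0.14). It was negative for Slc37a2 (-1.61, with -1.08 and 0.53) and Icosl (-0.99, with -0.45 and 0.53). Without the 3 arrays that stood against their genotype labels the interaction was 2.43 for G0s2, 2.61 for Acot1, 1.56 for Paqr7 and 2.43 for Aqp3, still passed, and it was not passed for Cyp4b1 (0.69), Me1 (1.45) and Slc37a2 (-1.53). The PPARα-null difference, not called with all arrays, was called without the 3 for Paqr7 (0.90), Acad11 (0.68), Scarb2 (0.49), Ehhadh (0.46) and Cyp4b1 (0.45).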

How the results depend on the processing

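The count of called genes stayed within 1.5 times its value of 3894 in all alternatives run, between 2697 at an adjusted p under 0.01 and 4503 with array weights, and leaving out single arrays gave 3288 to 3953. The 112 genes of the interaction became 68 with the compared groups alone and without EPA replicate 5, 313 where p under 0.01 was taken without adjustment, 65 where it was taken after adjustment and 227 with array weights, and leaving out single arrays gave 75 to 153. The PPARα-null count was 3258, or 3190 with the compared groups alone. Of 1530 pairs of a named gene and an alternative, 1512 kept direction and call. Ccnd1, Reg3g, Icosl and Bdh2 lost their call in 12 pairs. Without EPA replicate 4 Ccnd1 had an adjusted p of 0.0696, without WY14643 replicate 2 of 0.119 and without WY14643 replicate 3 of 0.0666. Reg3g had 0.0523 without WY14643 replicate 2 and 0.0532 without replicate 3, Icosl 0.0505 without WY14643 replicate 4, and Bdh2 0.0629 without WY14643 replicate 2 and 0.0926 without replicate 3. Values that were not called changed sign in 6 pairs: without EPA replicate 2, Ctrb1 was -0.77 and Cela2a -0.88, and Hspa1b was 0.08, 0.34 and 0.21 without EPA replicates 1, 2 and 3 and 0.60 without WY14643 replicate 4. Leaving out single arrays gave -0.77 to 1.76 for Ctrb1, -0.88 to 1.66 for Cela2a and -0.65 to 0.60 for Hspa1b. The cause was not tested. Wild-type WY14643 and EPA arrays that share a replicate number had deviations with an r of 0.100, 0.000, -0.099 and 0.046. Pairs with unlike numbers had -0.335 to 0.425. So few arrays cannot show whether the numbers pair samples. With the replicate block 3831 genes and 117 interactions were called, and without EPA replicate 5 3883 and 85, where Ccnd1 had -0.76 and Bdh2 0.80, neither called. Levels near or under log2 5 lie near background, so folds against them are bounds.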
